A study of Homo sapiens with 10 samples.

Results

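The 3 control lines of this study are BEAS-2B cells that grew in soft agar without chromate, and they were compared here with the parental BEAS-2B cells they came from. BEAS-2B, a cell line made from normal human bronchus, consists of epithelial cells that were immortalized with viral genes. Of the 10 arrays of the series, these 4 were chosen by their titles, 3 of a control cell line and 1 of the parental cells. Each control line was expanded in monolayer from a single colony that arose spontaneously in agar, so that it is a clone, whereas the parental cells had not passed through agar. The remaining 6 arrays hold Cr lines, grown from small or large agar colonies of cells exposed to 0.5 µM chromate for 30 days, and they serve only for values set beside these. The labels' treatment text gives that exposure and 3 weeks in agar for all arrays, control and parental ones included. The titles and cell type labels, which tell the groups apart, were used instead.

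Most epithelial cells stop dividing or die when they lose contact with a matrix, a form of cell death called anoikis. Growth in soft agar requires survival and division without that contact, and it is used as a test for transformed cells. Signals that attached cells receive through integrins, ERK and AKT are among those known to decide this outcome. Desmosomes are the adhesive junctions that link the keratin filaments of neighbouring epithelial cells, and TGF-beta is a secreted factor that drives epithelial cells toward a mesenchymal state. A line grown from 1 colony can differ from its parental culture through the agar, through the choice of 1 cell or through the culture that followed, and this design cannot tell these apart.

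Levels are given as log2 intensities. Values over all 10 arrays ran from 4.32 to 14.05 with a median of 5.86, and 10% lay under 4.60, which is taken as the range of background. The parental cells have 1 array, so no test with replicates on both sides can be made. A gene was therefore called higher or lower when each of the 3 control lines lay at least 2-fold beyond the parental array in the same direction. The error given for the control lines is the SD of the 3 lines, with a median of 0.08 over all transcript clusters (the probe groups that stand for a gene on this array). All 3 differences of a gene use the same parental array, so an error of that array would move them together. In such bulk samples, fewer cells with a transcript and less of it per cell cannot be told apart.

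Markers of the labelled cell type were checked first. The keratins KRT8, KRT18 and KRT7 of simple epithelia were bright in all 4 arrays, from 10.92 to 12.05. KRT19, the 1 called of 8 measured epithelial markers, was lower and is given below. The epithelial adhesion genes CDH1 and EPCAM lay between 4.84 and 5.28, near background in the lines and the parental cells alike. Of 6 measured markers of airway basal cells, 3 lay above the median of all values in all 4 arrays, KRT14, NGFR and ITGB4. KRT14 lay at 6.66 to 6.87, NGFR at 6.12 to 6.29 and KRT5 at 5.45 to 5.53, and ITGB4 was the only 1 called, lower. The mesenchymal genes VIM and THY1 were bright in all 4 arrays, between 10.77 and 11.80, while DCN and LUM lay between 4.58 and 4.72. None of the 5 measured alveolar and 5 endothelial markers lay above the median of all values in all 4 arrays. Of 4 measured blood markers 1 did so, CD14 at 6.31 to 6.76, as did 1 of 4 neural and 1 of 7 secretory or ciliated airway markers. The summed log2 level of the 4 measured blood markers was 20.9 to 21.5 in the control lines and 21.5 in the parental array.

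Of 28869 transcript clusters, 93 (0.322%) were called higher and 92 (0.319%) lower. Counted by gene, with 1 cluster each, 88 of 18377 (0.479%) were higher and 83 (0.452%) lower. These shares are the background for the counts of gene lists below. At 1.5-fold the rule called 391 clusters higher (1.35%) and 370 lower (1.28%), and at 5-fold 5 (0.0173%) and 4 (0.0139%). Counted by gene, 1.5-fold called 334 genes higher (1.82%) and 319 lower (1.74%), and at 5-fold 5 higher (0.0272%) and 4 lower (0.0218%). The parental array lay outside the range of the control lines in 57.9% of the clusters, so that this condition alone, without a fold, sets few clusters apart. Of 7835 genes whose mean over the 4 arrays exceeded a log2 intensity of 7, 78 were called higher (0.996%) and 27 lower (0.345%). All but 1 of these 4 arrays are control lines, so this cut keeps higher genes more readily than lower ones. EREG, with a mean of 7.89 in the control lines and 5.96 in the parental array, passed it. SLC27A2, at 4.96 and 8.02, did not. The unequal counts are thus in part built in, and over all genes they were 88 and 83. Folds of dim genes are compressed by the constant that the normalization adds, and this touches the lower genes more often. In 43 of the 92 lower clusters the mean of the control lines was under the median of all values, while the parental level was so in 12 of the 93 higher ones.

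**Figure D1:**
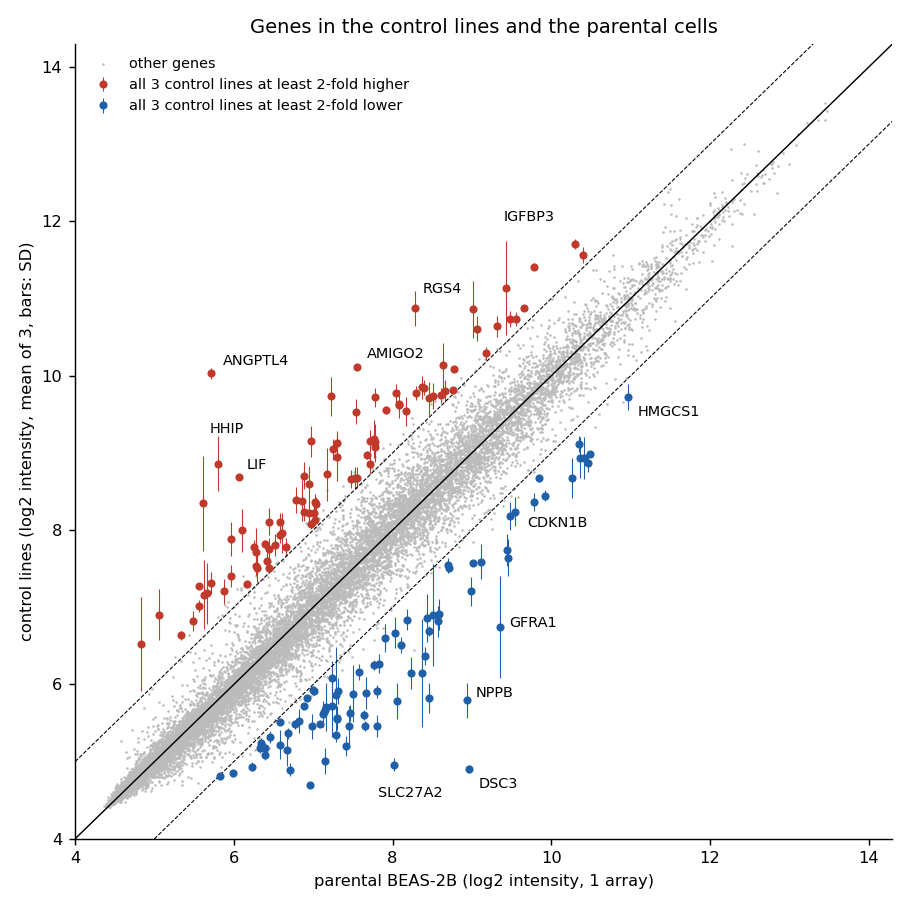
Log2 intensity of each gene in the parental array (x axis) and mean of the 3 control lines (y axis), with the SD of the lines as bars for the called genes. Red points mark the 88 genes called higher and blue points the 83 called lower, the dashed lines lie 2-fold from equality, and ANGPTL4 and DSC3 stand farthest from the diagonal.

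The largest difference among the higher genes was that of ANGPTL4, which encodes a secreted inhibitor of lipoprotein lipase and is induced by fatty acids and by hypoxia. Its level was 10.04, 10.11 and 9.96 in control 1, 2 and 3 and 5.72 in the parental array. The mean difference was 4.32, or 19.97-fold, with an SD of 0.07 between lines (n = 3). All 3 lines thus lay far above a parental level close to the median of all values. The Cr lines, from 8.66 to 10.13, overlapped the control lines in this gene.

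HHIP, which binds hedgehog ligands at the cell surface, stood at 9.20, 8.89 and 8.49 in the control lines and at 5.80 in the parental cells, a mean of 8.34-fold higher. IGFL1, a secreted protein of the IGF-like family, was at 8.93, 8.40 and 7.71 against 5.61. In both genes the lines differed among themselves, and the lowest line remained well above the parental array. The 6 Cr lines lay between 5.09 and 5.40 for HHIP and between 5.60 and 5.86 for IGFL1, and they differed from the control lines by -3.62 and -2.59 (log2, adjusted p = 1.07e-05 and 0.000566 from limma). LIF, a cytokine of the interleukin-6 family, was at 8.69, 8.72 and 8.67 against 6.07, and the Cr lines lay in between, from 7.41 to 8.24. RGS4, which turns off G protein signaling, was at 10.80, 11.13 and 10.70 against 8.28. These comparisons with the Cr lines share the control lines with the comparison that chose the genes.

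Next in size of the difference came AMIGO2 and SEMA7A. AMIGO2, an adhesion molecule known for protecting cells from apoptosis, was at 10.10, 10.09 and 10.14 in the control lines and 7.55 in the parental cells. SEMA7A, a membrane-anchored semaphorin that binds integrins, was at 9.89, 9.44 and 9.86 against 7.23. All lines of both genes were more than 2 log2 units above the parental level, with an SD between lines of 0.02 for AMIGO2 and 0.25 for SEMA7A. DNER, a Notch ligand, EREG, an EGF family ligand, IL1R1, the interleukin-1 receptor, FAP, a surface protease, and BHLHE40, a transcriptional repressor, had mean differences between 1.84 and 1.94.

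Among lower genes DSC3, a desmosomal cadherin, was the farthest below the parental array, at 4.85, 4.90 and 4.96 against 8.96. All 3 lines were near background, so that the mean difference of -4.06 on the log2 scale understates the fold. With the constant of 16 subtracted it was -5.11, and that of ANGPTL4 was 4.82, so the order of size between these genes depends on that constant. NPPB, which encodes the B-type natriuretic peptide, was at 6.004, 5.81 and 5.56 against 8.93. SLC27A2, which imports very long chain fatty acids and links them to coenzyme A, was at 4.90, 5.05 and 4.93 against 8.02. For these 3 genes the control lines lay far below a clear parental signal. In the Cr lines DSC3 was at 9.69 to 10.47, above the parental array, NPPB at 7.40 to 9.39 and SLC27A2 at 5.53 to 7.19.

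OLR1, a receptor for oxidized LDL, was at 6.05, 5.73 and 5.70 against 8.46. GFRA1, the co-receptor for GDNF, was at 7.37, 6.79 and 6.06 against 9.36, with a wide spread between lines. TIMP3, a matrix-bound inhibitor of metalloproteinases, was at 5.90, 5.61 and 6.94 against 8.38. Some lower genes were low in the Cr lines as well, and the count is given below. TMPRSS15, the protease enteropeptidase, was at 4.74, 4.68 and 4.68 in the control lines and at 4.69 to 4.77 in the Cr lines, against 6.96 in the parental array. PIEZO2, a channel opened by mechanical force, was at 5.30, 5.06 and 5.24 in the control lines, at 5.07 to 5.28 in the Cr lines and at 7.41 in the parental array. In both genes the 9 lines from soft agar sat together and the parental array stood alone. GPNMB, a membrane glycoprotein, and PAMR1 had mean differences of -2.34 and -2.27.

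**Figure D2:**
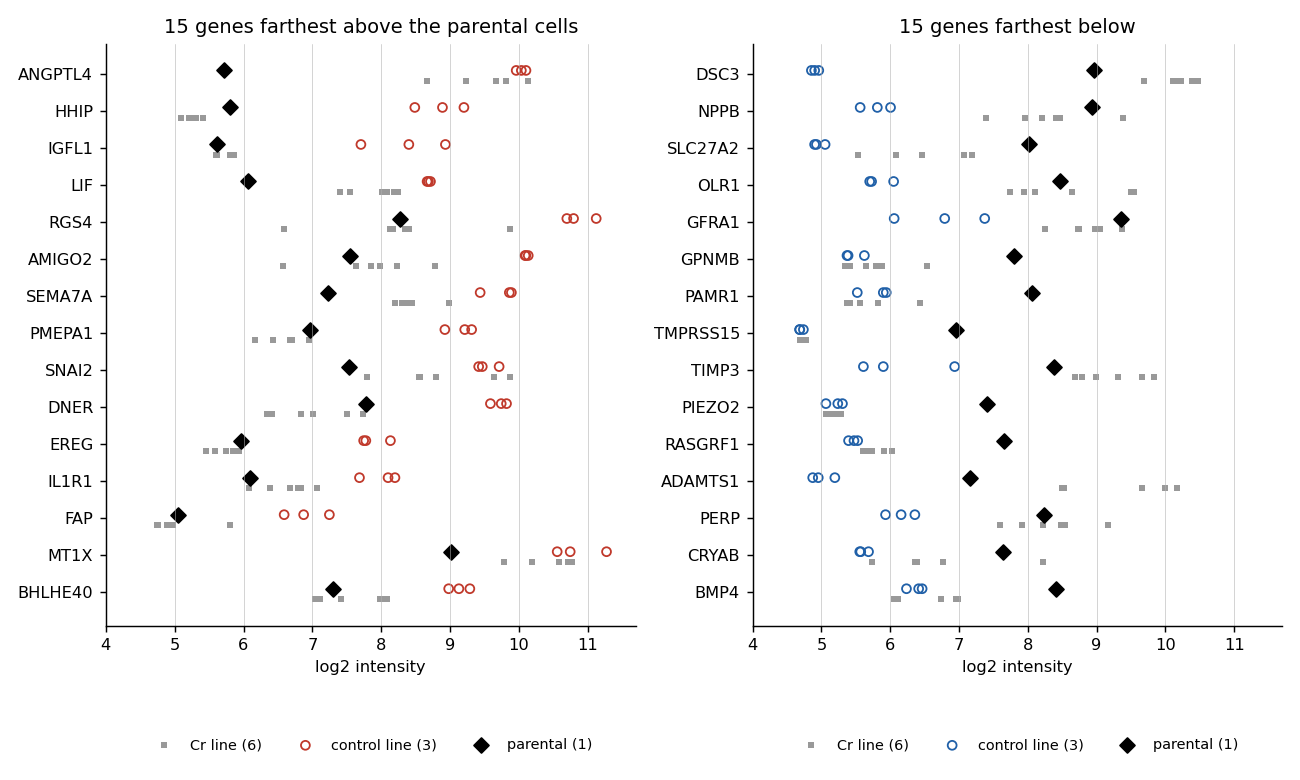
Log2 intensity (x axis) of 30 genes, the 15 with the largest difference above the parental array and the 15 with the largest below it, with open circles for the 3 control lines, a black diamond for the parental array and grey squares for the 6 Cr lines. The control lines of ANGPTL4 sit near 10 and the parental array at 5.72, while for TMPRSS15 and PIEZO2 control and Cr lines sit together below the parental array.

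Over the called genes, the Cr lines gave smaller differences from the same parental array. The 88 higher genes had a median difference of 1.44 in the control lines and 0.57 in the Cr lines, and the 83 lower genes of -1.52 and -0.91. All 6 Cr lines lay at least 2-fold above the parental array in 14 of the 88 higher genes, and at least 2-fold below it in 26 of the 83 lower genes. In 10 of the higher and 11 of the lower genes all 6 lay at the parental level or on its other side. Both comparisons share the parental array, and the genes were chosen by the control lines, so these counts are a description. The same counts were not made over all genes, so whether these are many or few cannot be told.

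Targets of the ERK pathway were called more often than those of any other list among the higher genes. ERK is the kinase at the end of the RAS cascade, and its targets include phosphatases and SPRY proteins that feed back on it. Of 31 measured members 8 were called higher (25.8%, against 0.479% of all genes) and none lower, and 13 were higher at 1.5-fold. The list's median difference was 0.68, against -0.01 over all genes, and in 25 of the 31 members (80.6%) all 3 lines lay above the parental array, as they did in 27.8% of all genes. The lists of this report were written with earlier results of these arrays known, so these counts describe the lists.

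JUNB, a subunit of the transcription factor AP-1, was at 9.18, 9.04 and 8.91 in the control lines and 7.25 in the parental array. SPRY4, which inhibits the RAS cascade, was at 7.31, 7.29 and 7.23 against 5.56. CCND1, the cyclin that drives entry into the cell cycle, was at 9.27, 8.67 and 8.89 against 7.30. In these genes every line stood well clear of the parental array. EMP1, a membrane protein, EPHA2, an ephrin receptor, and DUSP6 and DUSP4, phosphatases that act on kinases of the ERK family, had mean differences of 1.54, 1.37, 1.30 and 1.10. ERK's immediate early genes FOS and EGR1 differed by 0.03 and 0.24.

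Of the ligands that can feed this pathway, HBEGF and EREG were called higher. HBEGF, an EGF family ligand shed from the cell surface, was at 11.40, 11.37 and 11.46 against 9.79. EREG was at 7.78, 8.14 and 7.75 against 5.96. These were the 2 called of 16 measured genes of the family (12.5%, against 0.479% of all genes), and the list's median was 0.20. All 3 lines lay above the parental array in 9 of the 16 and below it in 4. The receptor EGFR, which was not called, was at 9.13, 8.56 and 9.04 against 8.46. In the Cr lines EREG was at 5.45 to 5.93 and HBEGF at 9.47 to 10.02, close to the parental levels. Among the ERK targets, JUNB was near its parental level there too, at 7.12 to 7.74. SPRY4 was at 6.44 to 7.72 in the Cr lines, EPHA2 at 9.38 to 9.92, EMP1 at 9.44 to 11.14 and CCND1 at 9.69 to 10.38, all above the parental array. Whether the ligands and the targets are linked in these cells was not tested.

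Of 25 measured TGF-beta targets and signaling genes, 5 were called higher (20%) and none lower. At 1.5-fold 8 were higher and 3 lower, and the list's median was 0.30. PMEPA1, a TGF-beta target that feeds back on the receptor's signal, was at 9.21, 8.93 and 9.32 against 6.97. SMAD7, the inhibitory SMAD, was at 8.47, 8.26 and 8.37 against 7.02. LTBP2, KLF10 and BHLHE40 had mean differences of 1.65, 1.45 and 1.84. Without control 2 the count of higher members was 8, and leaving out a line can only keep or raise it. The ligand TGFB2 was at 10.68, 10.66 and 10.87 against 11.31, and the ligand TGFB1 at 9.02, 8.61 and 8.94 against 8.12, so the ligands lay on opposite sides. BAMBI, a decoy receptor of the family, was at 8.25, 8.18 and 8.27 against 9.17.

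SNAI2 and SNAI1, transcription factors that repress epithelial genes, were the 2 called of 21 measured EMT genes (9.52%, against 0.479% of all genes). SNAI2 was at 9.47, 9.42 and 9.71 against 7.54, and SNAI1 at 6.81, 6.69 and 6.96 against 5.48. The Cr lines lay at 7.80 to 9.88 for SNAI2, overlapping the control lines, and at 5.38 to 5.73 for SNAI1. VIM, by contrast, was at 11.80, 11.47 and 11.79 against 11.39, a difference of 0.30. CDH1, the E-cadherin gene that these factors repress, was near background in the parental cells already, as given above.

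Targets of YAP and TEAD, which respond to cell shape and matrix stiffness, gave 4 higher and no lower of 29 measured (13.8%). ANKRD1, a nuclear ankyrin repeat protein, was at 11.18, 11.73 and 10.51 against 9.43. CCN2, a matrix protein, was at 10.82, 10.62 and 10.76 against 9.48. NT5E, the surface enzyme that makes adenosine, and IGFBP3, a binder of insulin-like growth factors, had mean differences of 1.48 and 1.40. CCN1 differed by 0.34 and AXL by -0.01, and the list's median was 0.12. GREM1, an antagonist of BMPs, was at 11.51, 11.50 and 11.69 against 10.40, whereas the ligand BMP4 was at 6.46, 6.24 and 6.41 against 8.41.

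Of 33 measured cytokines and chemokines, 5 were called higher (15.2%) and none lower, with a median of 0.08. CXCL8, which attracts neutrophils, was at 6.94, 7.10 and 7.01 against 5.56, and IL11, like LIF a cytokine that signals through gp130, at 8.19, 8.15 and 8.38 against 6.89. TNFRSF11B, the decoy receptor osteoprotegerin, was at 7.20, 7.59 and 6.70 against 5.62, with the widest spread between lines among the 5 called members. IL18 was at 7.16, 8.20 and 7.23 against 8.53 and was not called, control 2 being near the parental level.

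Angiogenic and guidance ligands and receptors gave 7 higher (21.9%) and 2 lower of 32 measured. VEGFC, which acts on lymphatic vessels, was at 9.91, 9.68 and 9.72 against 8.05, and FGF5, a fibroblast growth factor, at 9.87, 9.99 and 9.69 against 8.37. SLIT2, a repellent ligand of ROBO receptors, was at 8.09, 7.94 and 8.30 against 6.44, while the receptor ROBO1 lay at 5.54, 5.56 and 5.47 against 6.26. SEMA3E, a secreted semaphorin, and EPHA4, an ephrin receptor, were the lower members. SEMA3E was at 4.86, 4.99 and 4.83 against 6.70, and EPHA4 at 5.47, 5.49 and 5.50 against 7.09. The Cr lines lay at 7.57 to 8.39 for EPHA4, on the other side of the parental array.

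**Figure D3:**
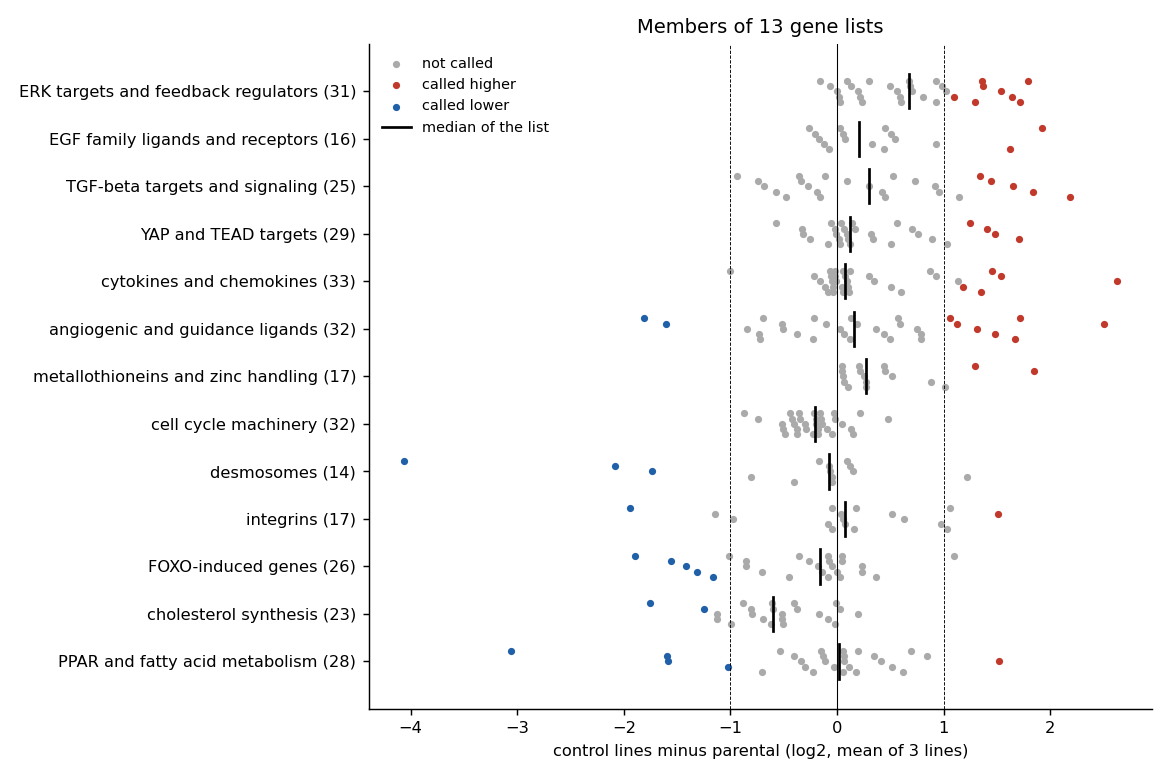
Mean log2 difference of the 3 control lines from the parental array (x axis) for each measured member of 13 gene lists, with the number of members in brackets, red and blue for called members and a black bar at the list's median. The median is 0.68 for ERK targets and -0.60 for cholesterol synthesis, and dashed lines mark 2-fold.

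Of 14 measured desmosome genes, 3 were called lower (21.4%, against 0.452% of all genes) and none higher. Beside DSC3, DSC2, the other expressed desmocollin, was at 5.40, 5.70 and 5.58 against 7.30, and PERP, a membrane protein of desmosomes and a p53 target, at 6.16, 5.93 and 6.36 against 8.23. JUP, the plaque protein plakoglobin, was at 6.53, 6.29 and 6.75 against 7.34. The members did not all lie on the same side. DSP, the plaque protein that anchors keratins, was at 9.63, 8.72 and 10.03 against 8.24, with control 2 less than 2-fold above the parental array. The cadherin DSG2, at 7.99, 7.72 and 8.19 against 8.01, had the parental level within the range of the lines. DSC1, DSG1, DSG3 and DSG4 lay between 4.62 and 4.86 in all 4 arrays. In the Cr lines DSC2 was at 8.02 to 9.12 and PERP at 7.59 to 9.17.

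Other attachment genes gave few calls, at shares above the 0.479% higher and 0.452% lower of all genes. The shares were 4.17% lower for other junction genes, 5.56% lower for hemidesmosomes and basement membrane and 5.88% each way for integrins. CXADR, a tight junction protein and virus receptor, was at 6.73, 6.62 and 6.74 against 8.46, the 1 called of 24 measured junction genes. ITGB4, the hemidesmosome integrin, was at 6.81, 6.50 and 6.49 against 7.90. ITGA4 was at 5.40, 5.31 and 5.33 against 7.29, and ITGA2, a collagen receptor subunit, at 7.63, 6.93 and 6.97 against 5.67, so that 1 of 17 measured integrins was called in each direction. With the constant of 16 subtracted before log2, 3 integrins were higher and 2 lower. Without control 2, 3 were higher and 1 lower, and leaving out a line can only keep or raise such counts. KRT19, a keratin of simple epithelia, was at 6.07, 6.14 and 6.27 against 7.58, the 1 called of 18 measured keratins (5.56%). In the Cr lines KRT19 ranged from 5.79 to 10.07.

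Genes that decide on cell death without attachment, the BCL2 and IAP families among them, gave 1 call of 26 measured. It was higher, a share of 3.85% against 0.479% of all genes, and at 1.5-fold 3 were higher and none lower. BIRC2, an inhibitor of apoptosis, was at 10.89, 10.90 and 10.86 against 9.65. XIAP, its relative on the X chromosome, was at 7.99, 8.08 and 7.98 against 7.09, past 1.5-fold only. The list's median was 0.05.

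FOXO transcription factors are held in the cytoplasm by AKT, and their targets rise when growth signals stop. Of 26 measured members of this list, 5 were called lower (19.2%) and none higher, and 8 were lower and 1 higher at 1.5-fold. KLHL24, an adaptor of a ubiquitin ligase, was at 5.997, 5.83 and 5.91 against 7.81. GABARAPL1, which acts in autophagy, was at 6.24, 6.40 and 6.16 against 7.83. CDKN1B, the cell cycle inhibitor p27, was at 8.34, 8.02 and 8.35 against 9.55. CCNG2, a cyclin of resting cells, and PNRC1, a nuclear coregulator, had mean differences of -1.16 and -1.42. The Cr lines were low in these genes as well, at 7.79 to 8.11 for CDKN1B and 5.91 to 6.57 for KLHL24. Other members were close to the parental level. TXNIP was at 10.84, 11.09 and 10.72 against 10.86, and FOXO1 differed by 0.05. TRIB2, a pseudokinase, was on the other side, at 6.72, 6.12 and 6.22 against 5.25, and the list's median was -0.16.

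None of 32 measured genes of the cell cycle machinery was called, and 2 were lower at 1.5-fold. This list leaves out the cyclin CCND1, which was called higher and was counted with the ERK targets. MKI67, the marker of cycling cells, was at 8.94, 9.08 and 8.95 against 9.86, and CDC25C, a phosphatase of mitotic entry, at 8.36, 8.51 and 8.29 against 9.13. In 21 of the 32 (65.6%, against 32.3% of all genes) all 3 lines lay below the parental array, and the median was -0.21. None of the 21 measured genes of the list of p53 targets and cell cycle inhibitors was called, but that list leaves out PERP and CDKN1B, which were called lower and were counted with the desmosomes and the FOXO targets. None of 32 measured interferon response genes or 29 genes of the unfolded protein and ATF4 response was called. The same held for 12 genes of the Y chromosome and 22 imprinted genes. With 0.479% of all genes called higher and 0.452% lower, absent calls in lists of this size say little. All 3 lines lay below the parental array in 18 of the 32 interferon genes (56.2%) and above it in 4. At 1.5-fold 4 of the 29 unfolded protein and ATF4 genes were lower, against 1.74% of all genes, and 1 was higher, against 1.82%.

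MIR221 was called higher. It was looked at after the values were seen, since the miRNAs of the MIR221 and MIR222 hairpins are known to repress CDKN1B. The probes on this array measure the hairpin or primary transcript and not the mature miRNA. The mature 3p sequences (RefSeq, GRCh38.p14, minus strand of chromosome X, at 45746180 to 45746202 and 45747036 to 45747056) are shown because they share their seed, bases 2 to 8 from the 5′ end, in capitals.
hsa-miR-221-3p: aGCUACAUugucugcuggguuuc
hsa-miR-222-3p: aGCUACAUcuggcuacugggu
The MIR221 cluster was at 7.37, 7.42 and 7.16 in the control lines and at 5.71 in the parental array, a mean of 3.05-fold higher. That of MIR222 was at 5.31, 5.05 and 5.23 against 4.98 and was not called, so of these 2 hairpins 1 was called. Whether the mature miRNAs differed was not measured.

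Of 23 measured genes of cholesterol synthesis and transport, 2 were called lower (8.7%, against 0.452% of all genes) and none higher. At 1.5-fold 8 were lower, against 1.74% of all genes. In 19 of the 23 (82.6%, against 32.3% of all genes) all 3 lines lay below the parental array, and the median was -0.60. No test was made on the list. HMGCS1, which makes HMG-CoA, was at 9.52, 9.82 and 9.83 against 10.97. LSS, which closes the sterol rings, was at 8.10, 7.64 and 8.06 against 8.93, and FDPS, which makes farnesyl diphosphate, at 9.14, 9.28 and 9.05 against 10.04. The other called gene was STARD5, a sterol carrier, at 6.997, 6.61 and 6.84 against 8.57. With the constant of 16 subtracted, 4 genes of the list were called lower. NSDHL and EBP, both on the X chromosome, differed by 0.20 and 0.03. In the fatty acid list the desaturases FADS2 and SCD were lower, at 8.99, 8.82 and 8.79 against 10.47 and at 8.69, 8.41 and 8.93 against 10.26. In that list 4 genes were lower and 1, ACSL5, was higher, of 28 measured.

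Metallothioneins bind zinc and copper, and their genes are switched on by the zinc sensor MTF1 through metal response elements. In the list of metallothioneins and zinc carriers, 2 of 17 measured genes were called higher (11.8%), 4 at 1.5-fold, and none was lower. MT1X was at 10.75, 11.28 and 10.56 against 9.01. SLC30A1, which exports zinc, was at 9.25, 8.87 and 9.11 against 7.79. MT2A, the brightest of the family, was at 12.997, 13.07 and 12.87 against 11.97, and MT1G at 9.76, 9.89 and 9.59 against 8.87. Other members lay closer to the parental array. MT1E was at 7.65, 8.14 and 7.64 against 7.76, and MT1M was at 5.21, 6.24 and 5.09 against 5.24, high in control 2 alone. Metallothionein genes are near copies of each other, and cross-hybridization between their probes was not tested. HMOX1, the heme oxygenase gene and another metal-responsive gene, was at 8.33, 8.44 and 8.26 against 7.04. It was the 1 called of 30 measured antioxidant genes (3.33%, against 0.479% of all genes).

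The promoters of MT1X, MT2A and SLC30A1 are shown because MT1X and SLC30A1 were called and MT2A, which passed 1.5-fold, is the brightest of the family. Each is the 250 bases before the gene's start in RefSeq (GRCh38.p14), 5′ to 3′ on the gene's strand. Capitals mark the core of the metal response element, TGCACNC or TGCGCNC on either strand, with overlapping matches counted as 1.
MT1X (chr16:56682220-56682469, plus strand): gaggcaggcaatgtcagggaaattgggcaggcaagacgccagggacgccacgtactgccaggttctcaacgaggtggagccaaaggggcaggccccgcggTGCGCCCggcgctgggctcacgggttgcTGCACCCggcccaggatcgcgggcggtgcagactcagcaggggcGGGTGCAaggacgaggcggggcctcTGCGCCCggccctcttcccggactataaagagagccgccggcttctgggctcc
MT2A (chr16:56608334-56608583, plus strand): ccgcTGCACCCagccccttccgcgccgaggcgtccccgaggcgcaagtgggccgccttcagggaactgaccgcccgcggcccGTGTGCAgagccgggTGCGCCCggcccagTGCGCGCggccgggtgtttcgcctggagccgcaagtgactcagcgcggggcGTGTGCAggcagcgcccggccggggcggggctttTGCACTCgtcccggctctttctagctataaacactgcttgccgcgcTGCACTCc
SLC30A1 (chr1:211579162-211579411, minus strand): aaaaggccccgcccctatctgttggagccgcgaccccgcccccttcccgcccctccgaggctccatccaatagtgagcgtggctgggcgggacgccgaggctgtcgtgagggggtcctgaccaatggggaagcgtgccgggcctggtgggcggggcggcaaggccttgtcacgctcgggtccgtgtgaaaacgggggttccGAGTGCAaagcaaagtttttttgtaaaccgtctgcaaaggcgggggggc
The core occurs 4 times in MT1X, 7 times in MT2A and 1 time in SLC30A1. Of all 35116 promoters of the table, cut to the same length, 24.8% hold at least 1 and 1.05% at least 3. The core was in 26.8% of the promoters of genes called higher and 23.8% of those called lower, against 29.7% of the array genes with an entry. A match is a description of the letters and says nothing of binding in these cells.

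Promoters of the called genes were searched for 4 other motifs as well, on both strands, and 71 of the 88 higher and 63 of the 83 lower genes had an entry. The AP-1 motif TGANTCA was in 8 of the 71 higher (11.3%) and 7 of the 63 lower genes (11.1%), against 4.91% of the 14210 array genes with an entry. The higher genes with it include AMIGO2, ANKRD1, CXCL8, EMP1 and IL11, and the lower ones GPNMB, KLHL24, PAMR1 and PERP. The share was about equal in both directions. The TEAD motif GGAATG was in 11.3% of the higher and 9.52% of the lower genes, against 9.98%. The FOXO motif GTAAACA was in 2.82% and 6.35%, against 2.08%, and the sterol element TCACNCCAC in none of either, against 0.873%. These sets are small, and no test was made on them.

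**Figure D4:**
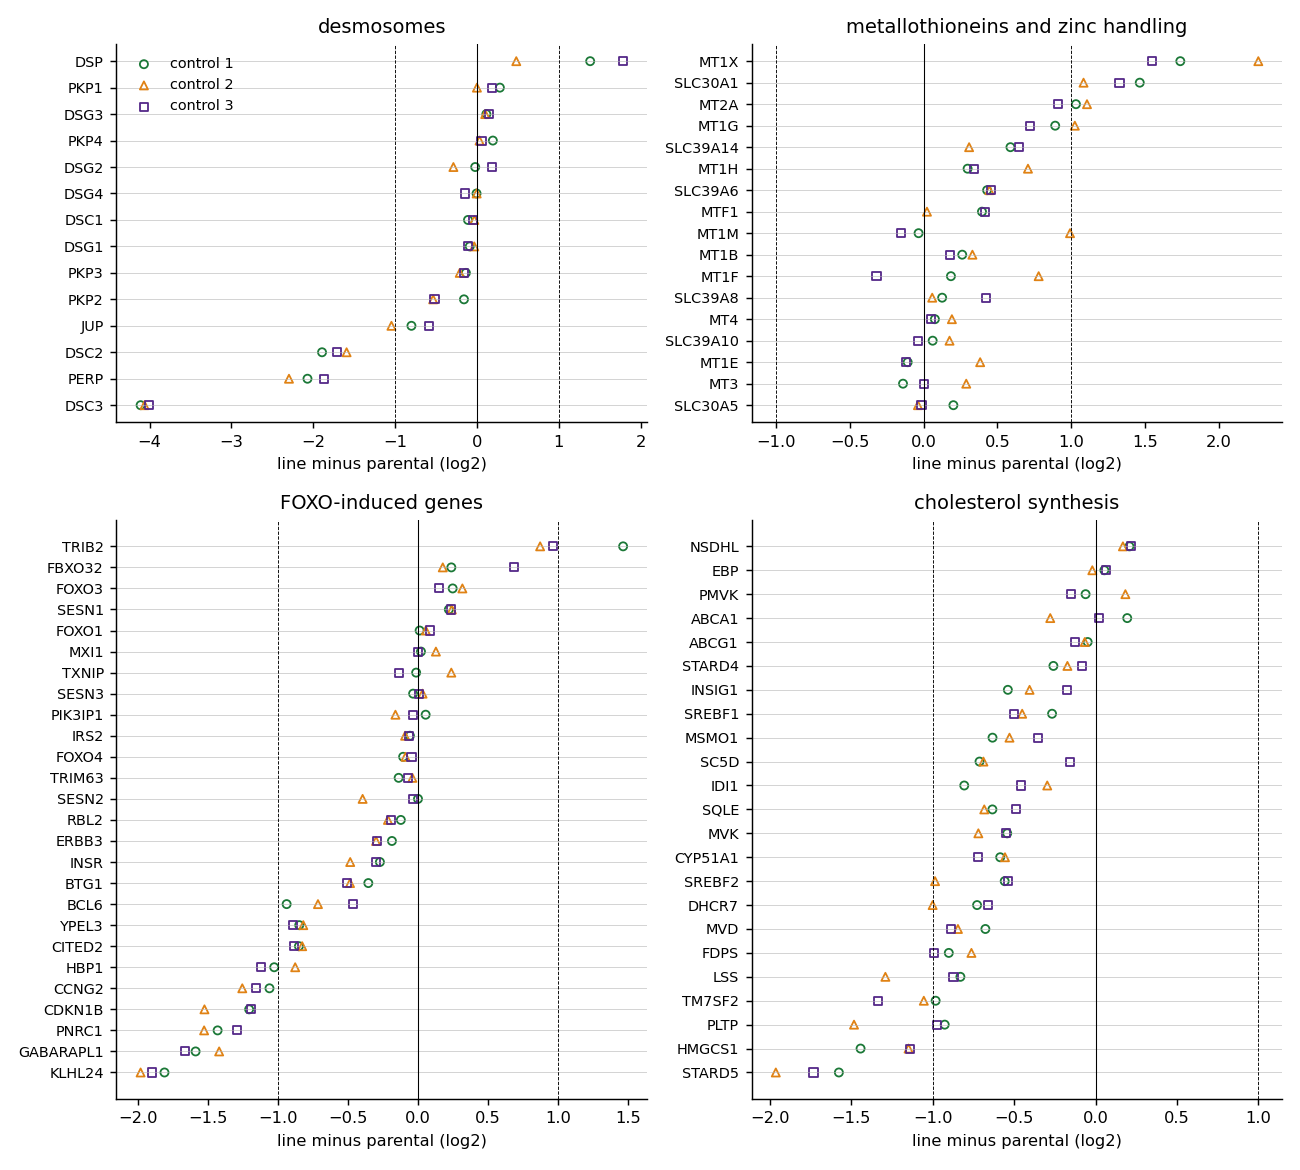
Log2 difference of each control line from the parental array (x axis) for every measured member of the desmosome, metallothionein and zinc, FOXO and cholesterol synthesis lists, with 1 symbol per line and dashed lines at 2-fold. The 3 symbols of DSC3 lie near -4, and control 2 (triangles) stands apart in DSP and in several metallothioneins.

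The 3 control lines resembled each other more than the parental cells, and control 2 stood apart from the other two. In all, 212 clusters (0.734%) and, counted by gene, 120 genes (0.653%) differed at least 2-fold between some pair of lines. Control 1 and 3 were at least 2-fold apart in 33 clusters, control 1 and 2 in 150 and control 2 and 3 in 162, whereas 348 to 440 clusters separated a line from the parental array. By line, control 1 was at least 2-fold above the parental array in 205 clusters and below in 158, control 2 in 237 and 203, and control 3 in 178 and 170. Of the clusters past 2-fold in some line, 183 higher ones were so in 1 line, 79 in 2 and 93 in all 3, and for lower ones the counts were 113, 71 and 92. No cluster was past 2-fold upward in 1 line and downward in another.

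Control 2 lay at least 2-fold above both other lines in 108 clusters, control 1 in 2 and control 3 in 3. Of these 108, 22 were small noncoding RNAs other than snoRNAs (of 47 on the array), 21 small nucleolar or Cajal body RNAs (of 198) and 5 histones (of 61). The rest were 27 clusters without a gene symbol here (of 7807), 21 of protein-coding genes (of 17594) and 12 with several symbols (of 1752). SNORD41, a guide for RNA modification, was at 7.33, 9.56 and 7.36 in control 1, 2 and 3 and at 8.11 in the parental array. What set control 2 apart was not tested. Without control 2, 139 genes were called higher and 106 lower in place of 88 and 83. Every line must pass, so leaving out any line can only keep or raise the counts. In clusters, 101 and 116 were called without control 1, 149 and 121 without control 2 and 108 and 110 without control 3.

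Single genes set each line apart. H3C1, a histone gene, had the widest range, at 6.43, 9.53 and 8.49, with 8.59 in the parental array. TMEM47, a membrane protein of junctions, was at 5.58, 7.86 and 8.41 against 6.45, and SLC38A5, an amino acid transporter, at 6.64, 8.56 and 6.01 against 7.72. OXTR, the oxytocin receptor, was at 8.77, 8.24 and 6.55 against 9.02, so that control 3 alone was more than 2-fold below the parental array, and control 2 was 1.71-fold below it. COL1A1, the main collagen of connective tissue, was at 12.30, 10.23 and 11.22 against 10.61. The parental array lay within the range of the lines in H3C1, TMEM47, SLC38A5 and COL1A1, so that some lines were above it and others below it. ALDOC, a glycolytic enzyme, was at 7.91, 5.59 and 7.02 against 8.17.

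Along the genome, the differences were not spread evenly. Genes with a mean log2 intensity over 7 in the 4 arrays were grouped into 242 windows of about 31 neighbours, in the gene order of RefSeq. In 15 windows the median difference was above 0.2 in all 3 lines and in 1 it was below -0.2, and 14 of the 15 belonged to chromosomes X and 4.

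On chromosome X the median over 254 expressed genes was 0.46, 0.42 and 0.42 in control 1, 2 and 3. The first window, from CD99 to KLHL15, had medians from -0.12 to -0.10, and the other 7 windows from 0.34 to 0.69. Beyond the first window, 187 of 223 genes (83.9%) were higher in all 3 lines, as were 34.8% of the 7833 expressed genes in windows. The difference was therefore shared by most expressed genes of the chromosome outside its start, each by a small amount. Of the 254, 5 were called higher and 1 lower, against 0.996% and 0.345% of all 7835 genes with a mean over 7. Among X genes called were BCOR, a transcriptional corepressor, at 9.24, 8.91 and 9.39 against 7.77, and DKC1, which stabilizes telomerase RNA, at 10.65, 10.84 and 10.72 against 9.56. L1CAM, an adhesion molecule, went the other way, at 7.29, 6.99 and 7.34 against 8.99. In the 6 Cr lines the X median lay between 0.02 and 0.08 against the same parental array.

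On chromosome 4 the median over 285 genes was 0.28, 0.27 and 0.27, and 185 of them (64.9%) were higher in all 3 lines. The window medians ran from 0.16 to 0.41, except for the window from METTL14 to ELMOD2 with 0.05 to 0.16. Of these 285 genes, 6 were called higher and 3 lower, against 0.996% and 0.345% of all 7835 genes with a mean over 7. Over all levels, 7 genes of this chromosome were called higher (HHIP, EREG, VEGFC, SLIT2, FGF5, CXCL8 and NIPAL1) and 6 lower (ZNF518B, MGARP, SMIM14, PTPN13, CCNG2 and GASK1B). The chromosome's median was -0.19 to -0.09 in the Cr lines. Of the other chromosomes none had a median beyond 0.15 in any line except Y, where 6 genes were measured. The window on chromosome 5 from GOLPH3 to TMEM267 was at -0.26, -0.25 and -0.23, and that on chromosome 19 from ETHE1 to SLC1A5 at 0.28, 0.20 and 0.26. Windows at the end of chromosome 3 from XRN1 on were at -0.22 to -0.06. Gene copy number was not measured in these samples.

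**Figure D5:**
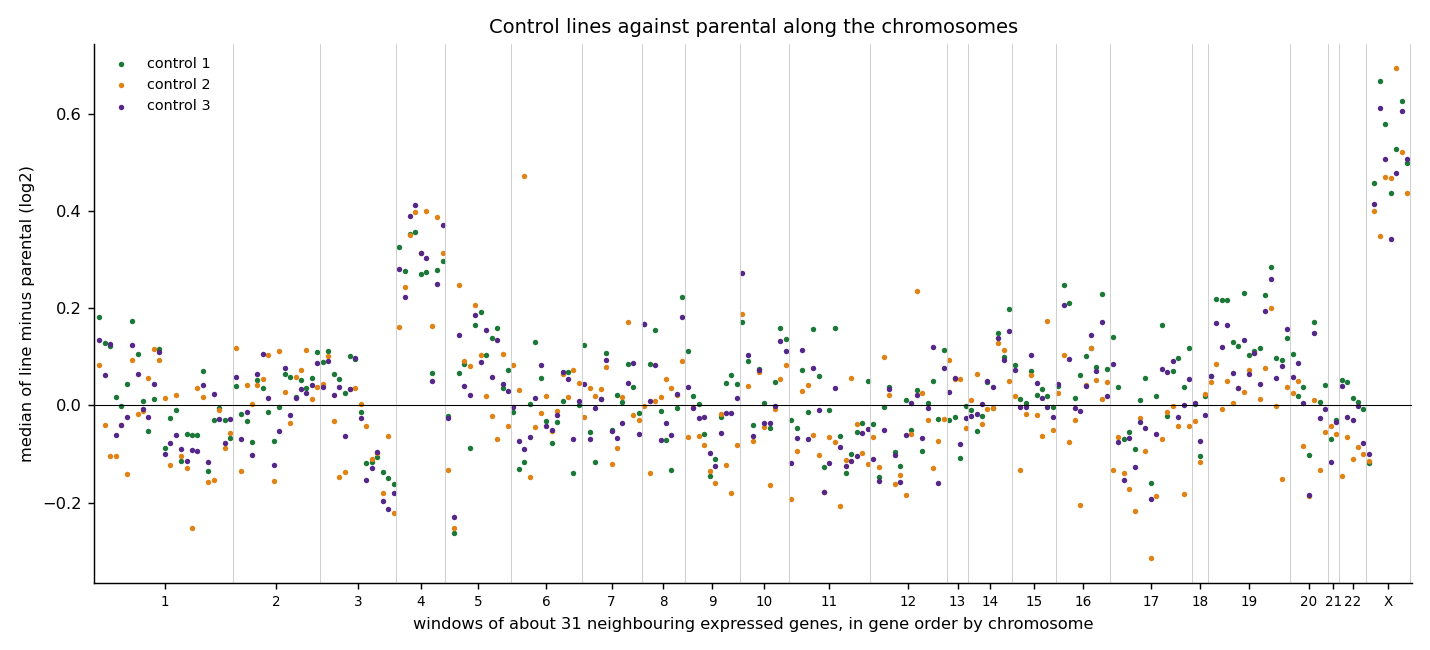
Median log2 difference of each control line from the parental array (y axis) in windows of about 31 neighbouring expressed genes, ordered along chromosomes 1 to 22 and X (x axis), with 1 colour per line. The windows of chromosome 4 lie between 0.05 and 0.41 and those of chromosome X, apart from its first, between 0.34 and 0.69, while 1 window of chromosome 6 with histone genes is high in control 2 only, at 0.47.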

How the data were processed

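Affymetrix Human Gene 1.0 ST arrays were hybridized with RNA of 9 lines that had grown in soft agar and of parental BEAS-2B cells. The intensities deposited by the authors were made with RMA16 in GeneSpring, with quantile normalization, a value per transcript cluster and a constant of 16 added. The order of these steps was not given in the sources used here. Subtracting 16 from the final values takes the constant as added last. The intensities are linear, and their log2 was taken. The baseline transformation named in the methods is not in these values. The genome build was not given in the sources used here.

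Of 28869 clusters 19310 have 1 gene symbol, 1752 several and 7807 none here. A gene is its brightest cluster over all arrays. Genes were placed with RefSeq (GRCh38.p14). Groups came from titles, and differences from the parental array were counted by fold. limma 3.58.1 (R 4.3.3; 4 groups, 6 residual and 1.96 prior degrees of freedom, Benjamini-Hochberg over all clusters) compared Cr with control lines for named genes. Named are the 15 largest differences each way, the called members of each list (up to 5, or the 2 largest differences where fewer than 2 were called), all members of the desmosome, metallothionein, FOXO and cholesterol lists, the 10 genes with the widest range between lines and the cell type markers. Any other gene was named after its values were seen. Members and all 33 lists were chosen with earlier results of these data known. Steps were tested on simulated data. The number of arrays limits the precision, and replicate error is the spread between lines. Figures used matplotlib 3.10.9.

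The lists whose calls are not described in the text follow, with shares to set against 0.479% higher and 0.452% lower of all genes. Called higher and lower were 2 (8%) and 0 of 25 focal adhesion genes, 1 (4.35%) and 2 (8.7%) of 23 BMP genes, and 1 (3.33%) and 0 of 30 hypoxia genes. They were 0 and 2 (14.3%) of 14 MHC genes, and 3 (8.82%) and 1 (2.94%) of 34 WNT and Notch genes. They were 1 and 1 (7.69% each) of 13 natriuretic peptide genes, and 0 and 1 (5%) of 20 retinoid genes. Of 29 collagens and matrix proteins they were 1 and 1 (3.45% each), BGN and SULF1, no collagen. Of 28 matrix proteases and inhibitors, 1 was higher (3.57%), ADAMTS6, and 3 lower (10.7%), ADAMTS1, ADAMTS5 and the inhibitor TIMP3. Of 18 hemidesmosome and basement membrane genes they were 0 and 1 (5.56%).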

Additional observations from a re-analysis of the deposited data

How the results depend on the processing

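The counts of 93 clusters higher and 92 lower stayed within 1.5 times of these values after quantile normalization again, centring each array on its median, leaving out the dimmest 25% of clusters or keeping only clusters with 1 gene symbol. They moved to 143 and 144 with the constant of 16 subtracted before log2, and to 171 and 154 when only the mean of the lines had to pass 2-fold. With limma over 4 groups, where the parental array was assumed to vary like the lines, 67 and 64 clusters passed an adjusted p under 0.05 and 2-fold, 47 and 51 of them among the 93 and 92. Over control and parental arrays only, 7 and 14 passed. Leaving out 1 control replicate gave 101 to 149 clusters higher and 110 to 121 lower, the highest in both without control 2. Such counts can only stay or rise, because every line must pass. Clusters 2-fold apart between lines, 212 in all, were 411 with 16 subtracted, 137 with 1 gene symbol only, and 33 to 162 with 1 line left out, 33 without control 2. An alternative chosen after seeing the data, without histone and small noncoding RNA clusters, gave 92, 92 and 155. The differences of the 87 called genes among 160 chosen by the naming rule kept their sign in all 525 recalculations. These genes were chosen with every line at least 2-fold on 1 side. Leaving out a line or subtracting 16 therefore could not change a sign, so the count says little about how firm the differences are. No paired analysis was possible because the parental array carries no line number. With 1 parental array, a fold near 2 cannot be told from the error of that array, and folds of genes near background are understated.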
